A study of Mus musculus with 12 samples.

Results

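The BCL2 family decides at the mitochondrion whether a cell lives or dies. The 10 family genes described here were taken by symbol from a table of gene counts that held 54532 genes in all, and each was found once. They are the survival genes Bcl2a1a, Bcl2a1b, Bcl2a1d, Bcl2, Bcl2l1 and Mcl1, the BH3-only death genes Bcl2l11, Bbc3 and Pmaip1, and the effector gene Bax. All 10 passed the filter on low counts that left 14293 genes for testing. RNA came from splenic dendritic cells (DCs), cells that take up microbes and present their antigens to T cells. B, T and NK cells had been depleted with antibodies against CD90.2, CD45R or CD49b, and CD11c-positive cells were then selected on magnetic beads. The 4 groups had 3 libraries each, numbered 1 to 3. Treated SLC29A3-/- C57BL6 cells (KO here) received an attenuated Salmonella typhimurium, STmDfla, at a multiplicity of infection of 10. Per the series' design text the pulse lasted 30 minutes and was followed by washing and a chase of 3 hours. The treatment protocol instead states 3 hours with bacteria, and the design text was followed here. Untreated KO cells received no bacteria, and treated and untreated WT C57BL6 cells formed the other 2 groups. No source used here gives the age of the mice, the deleted part of Slc29a3 or whether animals were pooled. P-values therefore cover only the scatter among the libraries at hand, part of which may be technical.

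Survival proteins of the family, among them BCL2, BCL-XL (gene Bcl2l1), MCL1 and A1 (the Bcl2a1 genes), hold back BAX and BAK. Released BAX and BAK open the outer mitochondrial membrane, and the cytochrome c that leaks out starts the caspase cascade. BH3-only proteins such as BIM (gene Bcl2l11), PUMA (Bbc3) and NOXA (Pmaip1) bind and block the survival proteins, and BIM is known as a limit on the lifespan of DCs. RNA levels only were measured here, and the proteins of this family are also controlled after transcription.

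After bacteria, BIM and BCL-XL genes rose in both genotypes together with the A1 genes Bcl2a1a and Bcl2a1d. Of the 10 genes, 6 were called in KO cells, where 23.0% of all tested genes were, and 4 in WT cells, where 18.7% were. All of these rose, as did 11.6% of tested genes in KO and 10.6% in WT cells. None of the 10 fell in either genotype, where 11.5% of tested genes fell in KO and 8.07% in WT cells. The median change of the 10 was 1.19 log2 in KO cells, against -0.07 for all genes, and 0.37 in WT cells, against -0.04. Between genotypes, 1 gene (Bcl2) was higher and 4 were lower in untreated KO than in untreated WT cells, against 9.50% and 3.46% of all tested genes (13.0% in either direction). In treated cells 2 were higher and 2 were lower in KO, against 9.21% and 4.89% of tested genes (14.1% in either direction). The medians of these differences were -0.52 log2 untreated and -0.18 log2 treated, against 0.01 and -0.01 for all genes. Called here means a Benjamini-Hochberg adjusted p under 0.05 in edgeR's quasi-likelihood test over all tested genes. The responses and the genotype differences are built from the same 4 groups, so they are not independent of each other. Nor are the 10 genes: Bcl2a1a, Bcl2a1b and Bcl2a1d are near-identical copies, described below. They enter every count and median over the 10 as separate genes.

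**Figure D1:**
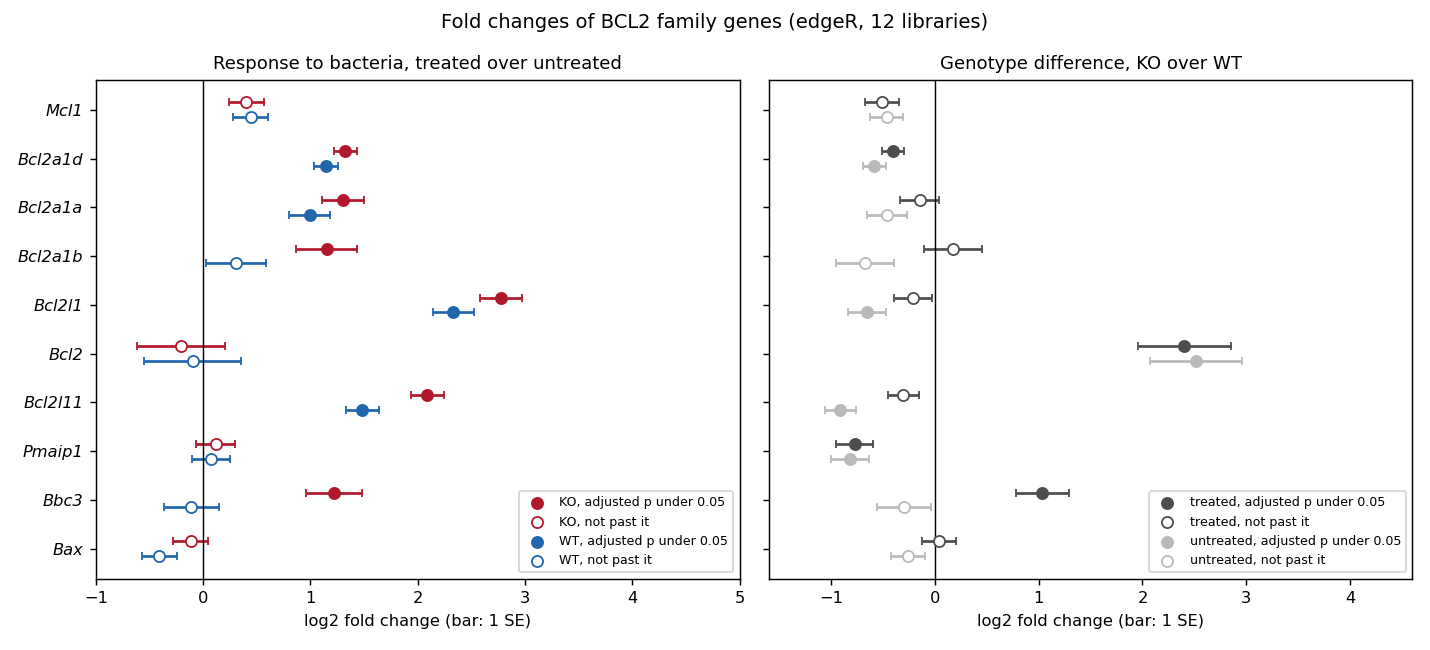
Log2 fold change of each of the 10 genes (points, with bars of 1 SE) in the 4 comparisons, filled where the edgeR adjusted p is under 0.05. Bcl2l1 lies farthest to the right in both responses, at 2.77 in KO and 2.33 in WT cells, and Bcl2 in both genotype differences, at 2.52 untreated and 2.40 treated.

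Library totals ran from 15946516 to 19087007 counts in treated KO, 15814761 to 18561946 in untreated KO, 15693172 to 24074596 in treated WT and 16432936 to 18107470 in untreated WT cells. Levels below are in CPM, the usual scaling of counts to library size, with TMM factors applied. Slc29a3, which encodes a nucleoside transporter of lysosomes, was counted in every library, at 124 to 191 CPM in treated KO and 63.5 to 94.0 CPM in untreated KO, against 197 to 233 CPM in treated WT and 99.2 to 110.2 CPM in untreated WT cells. With the deleted part not given, this does not check the genotype label. Of the markers for DCs, cDC1 and cDC2 cells, all were counted in every group. The 6 general DC markers summed to 6810 to 8210 CPM in treated KO and 5020 to 7080 CPM in untreated KO cells, below the 9140 to 11300 CPM of treated WT and 7360 to 8310 CPM of untreated WT cells. Most of that sum was H2-Ab1, whose differences did not pass (-0.51 log2 untreated and -0.46 log2 treated, edgeR adjusted p = 0.0695 and 0.0889). Of the 6, Zbtb46 in both treatments and Dpp4 in treated cells were called lower in KO, while Itgax (0.06 and -0.06 log2) and Flt3 (-0.14 and -0.36 log2) overlapped between genotypes untreated and treated. Markers of other cells were higher in KO: the 6 erythroid markers summed to 1910 to 5000 CPM in KO and 31.7 to 38.3 CPM in WT libraries, and the 9 neutrophil markers to 61.8 to 1140 CPM and 8.36 to 20.5 CPM. In bulk RNA, fewer cells of a type and less RNA per cell cannot be told apart. The part of these other cells in any genotype difference below was not tested. Y-linked genes were counted only in the library numbered 1 of each group, where Xist had no more than 1 count, and Xist was abundant in the others. Library 1 of each group also stood apart in B cell markers, with a sum of 74.4 to 95.0 CPM against 11.0 to 24.8 CPM in the others, and in T cell markers, with 11.8 to 15.6 CPM against 1.49 to 4.08 CPM.

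The 3 A1 genes are near-identical copies that lie within 484 kb of each other on mouse chromosome 9. The coding sequences, each 519 bases long, differ at 12 positions, and any pair is 97.9% to 98.8% identical. The first 120 coding bases, which hold 7 of the 12 positions, are shown because counts can be told apart only through such differences (GRCm38, read from the reference annotation). Capitals mark the positions at which the copies differ.
Bcl2a1a (chr9:88957051-88957170, plus strand): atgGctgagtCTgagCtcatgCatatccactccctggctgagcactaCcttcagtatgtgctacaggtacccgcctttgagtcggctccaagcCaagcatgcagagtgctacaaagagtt
Bcl2a1b (chr9:89199360-89199479, plus strand): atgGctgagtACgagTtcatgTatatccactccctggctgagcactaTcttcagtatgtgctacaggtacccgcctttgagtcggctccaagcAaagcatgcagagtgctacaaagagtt
Bcl2a1d (chr9:88731600-88731719, minus strand): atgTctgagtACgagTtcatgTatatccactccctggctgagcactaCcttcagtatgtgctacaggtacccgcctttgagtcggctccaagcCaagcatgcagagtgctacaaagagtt
Of the stretches of 150 bases in each transcript, the length of 1 read, 28.2% in Bcl2a1a, 14.2% in Bcl2a1b and 30.3% in Bcl2a1d also occur in another copy. How the counting treated reads that match several copies is not given in the sources used here, so the split between copies is uncertain. The gene Gm29094, annotated over 49.1% of the exonic bases of Bcl2a1b on the same strand, had at most 7 counts in a library. Bcl2a1c, a further copy, had no count in any library.

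Bcl2a1d carried most of the A1 counts. Its level was 723, 652 and 770.1 CPM in treated KO libraries 1 to 3, and 316, 291 and 249 CPM in untreated KO libraries. In WT cells it was 899, 972 and 966 CPM treated and 439.5, 406 and 436 CPM untreated. Every treated library lay above every untreated one, and in each treatment all KO libraries lay below all WT libraries. Bcl2a1d rose 2.51-fold in KO cells (1.33 log2, SE 0.11, edgeR adjusted p = 7.15e-06) and 2.21-fold in WT cells (1.15 log2, SE 0.11, edgeR adjusted p = 2.82e-05). KO cells had less of it than WT cells, by 1.50-fold untreated (-0.58 log2, SE 0.11, edgeR adjusted p = 0.00449) and 1.32-fold treated (-0.40 log2, SE 0.11, edgeR adjusted p = 0.0285). The treated genotype difference lost its call when the 3 copies were summed (-0.29 log2 (edgeR adjusted p = 0.111)). It also lost it without treated KO library 2 (-0.35 log2 (edgeR adjusted p = 0.122)), treated WT library 2 (-0.38 log2 (edgeR adjusted p = 0.0658)) or treated WT library 3 (-0.39 log2 (edgeR adjusted p = 0.0872)). Without untreated KO library 2 the adjusted p was 0.051, and without untreated WT library 3 it was 0.0501. The call was likewise lost with scaling by library totals alone (-0.31 log2 (edgeR adjusted p = 0.0776)) and with only the groups compared in the fit (-0.39 log2 (edgeR adjusted p = 0.103)).

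Bcl2a1a had 147, 204 and 253 CPM in treated KO libraries, against 72.0, 92.9 and 79.9 CPM in untreated KO libraries. In WT libraries the level was 177, 259.8 and 231 CPM treated and 97.4, 118 and 121 CPM untreated. Treated and untreated libraries did not overlap in either genotype, and the gene rose 2.46-fold in KO (1.30 log2, SE 0.20, edgeR adjusted p = 0.000529) and 1.99-fold in WT cells (0.99 log2, SE 0.19, edgeR adjusted p = 0.00428). Untreated KO libraries lay below untreated WT libraries, but the difference of -0.46 log2 did not pass (edgeR adjusted p = 0.151). It did with only the groups compared (-0.47 log2 (edgeR adjusted p = 0.0388)) and with a block for the replicate number over all groups (-0.46 log2 (edgeR adjusted p = 0.0205)). The sum of the copies, given below, passed too. After bacteria the genotypes overlapped (-0.15 log2, SE 0.19, edgeR adjusted p = 0.664).

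Bcl2a1b was the copy that differed most between replicates. It had 138, 145 and 180.5 CPM in treated KO and 79.4, 73.0 and 56.1 CPM in untreated KO libraries, and rose 2.22-fold (1.15 log2, SE 0.28, edgeR adjusted p = 0.0119). This call was lost without untreated KO library 3 (1.03 log2 (edgeR adjusted p = 0.052)), without library 1 of every group (1.33 log2 (edgeR adjusted p = 0.0652)) and with no filter on low counts (1.15 log2 (edgeR adjusted p = 0.0684)). In WT cells it had 157, 71.0 and 184 CPM treated and 104, 96.2 and 132 CPM untreated, and the change of 0.31 log2 did not pass (SE 0.28, edgeR adjusted p = 0.479). The low value belonged to treated WT library 2, in which Bcl2a1b made up 5.45% of the counts of the 3 copies. That share was 12.7% to 19.2% in the other 11 libraries. Without this library the WT change was 0.62 log2 (edgeR adjusted p = 0.0498). The untreated genotype difference of -0.67 log2 did not pass (edgeR adjusted p = 0.147), but it did without treated WT library 2 in the fit (-0.68 log2 (edgeR adjusted p = 0.0207)) and with only the groups compared (-0.68 log2 (edgeR adjusted p = 0.0284)). The treated genotype difference was 0.17 log2 (edgeR adjusted p = 0.736).

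The sum of the 3 copies does not depend on how reads were split among them. It would depend on whether reads that match several copies were dropped or counted repeatedly, which is not given. The sum was 1008, 1001 and 1203 CPM in treated KO libraries, and 467, 456 and 385 CPM in untreated KO libraries. In WT libraries the sum was 1233, 1303 and 1380 CPM treated and 641, 620.3 and 689 CPM untreated. Tested as a single gene, A1 rose by 1.30 log2 (edgeR adjusted p = 1.1e-05) in KO and by 1.01 log2 (edgeR adjusted p = 9.52e-05) in WT cells. Untreated KO cells had less A1 RNA than untreated WT cells (-0.58 log2 (edgeR adjusted p = 0.00592)).

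Bcl2l1, the gene of BCL-XL, rose by the largest factor of the 10 in both genotypes. Its level was 334, 591 and 506 CPM in treated KO libraries, against 71.2, 77.3 and 60.9 CPM in untreated KO libraries, a 6.84-fold rise (2.77 log2, SE 0.20, edgeR adjusted p = 2.03e-06). In WT libraries it was 469.5, 565 and 624 CPM treated, against 104, 107 and 119 CPM untreated, a 5.03-fold rise (2.33 log2, SE 0.19, edgeR adjusted p = 1e-05). Treated and untreated libraries were far apart, and treated KO library 1 was the lowest treated library. Untreated KO cells had 1.57-fold less Bcl2l1 RNA than untreated WT cells, with no overlap (-0.66 log2, SE 0.18, edgeR adjusted p = 0.0357). That call was lost without untreated KO library 3 (-0.61 log2 (edgeR adjusted p = 0.111)), untreated WT library 2 (-0.72 log2 (edgeR adjusted p = 0.0583)) or untreated WT library 3 (-0.64 log2 (edgeR adjusted p = 0.0956)). In treated cells the genotypes overlapped (-0.21 log2, SE 0.18, edgeR adjusted p = 0.479).

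Mcl1, whose protein is short-lived and needed for the survival of many blood cells, had more counts than any of the other 9 genes. Treated KO libraries had 1612, 1285 and 1168 CPM, and untreated KO libraries 1274, 894 and 911 CPM. Treated WT libraries had 2102, 1824 and 1843 CPM, and untreated WT libraries 1593, 1294 and 1361 CPM. Library 1 was the highest in each group, and each treated library lay above the untreated library of the same genotype and number. Library 1 also had the highest sums of B and T cell markers, whose part in the Mcl1 level was not tested. The change was 0.40 log2, SE 0.16, edgeR adjusted p = 0.0963 in KO cells, and 0.44 log2, SE 0.16, edgeR adjusted p = 0.0777 in WT cells. Neither passed, but with a block for the replicate number within genotype both did, at 0.41 log2 (edgeR adjusted p = 0.00248) in KO and 0.44 log2 (edgeR adjusted p = 0.00166) in WT cells. All KO libraries lay below all WT libraries within a treatment. The differences of -0.46 log2 untreated (SE 0.16, edgeR adjusted p = 0.0846) and -0.50 log2 treated (SE 0.16, edgeR adjusted p = 0.0575) did not pass. The DESeq2 Wald test called Mcl1 in all 4 comparisons. Its responses were 0.45 log2, DESeq2 adjusted p = 0.044 in KO and 0.47 log2, DESeq2 adjusted p = 0.0384 in WT cells, and its genotype differences -0.49 log2, DESeq2 adjusted p = 0.0342 untreated and -0.51 log2, DESeq2 adjusted p = 0.0256 treated. With no filter on low counts edgeR called both genotype differences (adjusted p = 0.0472 untreated and 0.0317 treated), and with only the groups compared it called the WT response (adjusted p = 0.0386). Without untreated KO library 1 the untreated difference passed (-0.70 log2 (edgeR adjusted p = 0.0125)), and so did the treated difference (-0.50 log2 (edgeR adjusted p = 0.0333)) and the KO response (0.61 log2 (edgeR adjusted p = 0.018)). Without treated KO library 1 the treated difference also passed (-0.65 log2 (edgeR adjusted p = 0.0211)). With library 1 left out of every group, Mcl1 passed in both responses (0.44 log2 (edgeR adjusted p = 0.018) in KO, 0.46 log2 (edgeR adjusted p = 0.0191) in WT) and in both genotype differences (-0.56 log2 (edgeR adjusted p = 0.00798) untreated, -0.58 log2 (edgeR adjusted p = 0.00638) treated).

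Bcl2, the founding member of the family, was the scarcest of the 10 and the gene with the widest genotype difference. It had 8.81, 16.4 and 23.8 CPM in treated KO and 9.47, 19.6 and 27.2 CPM in untreated KO libraries, from 147 to 574 counts. Treated WT libraries had 4.59, 2.27 and 2.46 CPM and untreated WT libraries 3.94, 3.13 and 2.78 CPM, from 39 to 74 counts. Every KO library lay above every WT library. KO exceeded WT 5.71-fold in untreated (2.52 log2, SE 0.44, edgeR adjusted p = 0.00361) and 5.29-fold in treated cells (2.40 log2, SE 0.45, edgeR adjusted p = 0.00494). Bacteria did not change it detectably in KO (-0.21 log2, SE 0.41, edgeR adjusted p = 0.762) or WT cells (-0.10 log2, SE 0.45, edgeR adjusted p = 0.908).

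Markers of some other cells had the same order over the libraries of each KO group as Bcl2, and others did not. The 8 red pulp macrophage markers summed to 978, 2060 and 3390 CPM in treated KO libraries 1 to 3, and 1050, 1850 and 3240 CPM in untreated KO libraries. They summed to 349 to 658 CPM in treated WT and 520 to 986 CPM in untreated WT libraries. These WT sums were mostly Hmox1 (means of 347 CPM treated and 611 CPM untreated) and Spic (87.6 and 115 CPM). The means of all 8 markers were higher in KO, by unlike factors. C1qb had means of 238 CPM in treated and 267 CPM in untreated KO cells, against 6.08 and 7.47 CPM in WT cells. The erythroid markers summed to 1910, 2610 and 5000 CPM in treated KO and 1910, 2290 and 4010 CPM in untreated KO libraries. Among KO libraries, library 3 of each treatment was the highest, and library 1 the lowest, in Bcl2 and in both sums. None of the 8 macrophage or 6 erythroid markers was at 0 in any group. The 5 monocyte markers summed to 202 to 497 CPM in treated KO and 329 to 716 CPM in untreated KO libraries, against 41.5 to 68.5 CPM in treated WT and 57.4 to 104 CPM in untreated WT libraries. Sums of monocyte, stroma, plasma cell and plasmacytoid DC markers had this order too. The stroma sum was nearly all Pecam1, at means of 122 CPM in treated and 149 CPM in untreated KO cells. Its other markers had means of at most 0.158 CPM in KO groups. The plasmacytoid DC sum was mostly Bst2 and Tcf4, with Siglech at means of 0.823 CPM in treated and 0.764 CPM in untreated KO cells. The neutrophil sum did not, at 255, 1140 and 91.5 CPM in treated KO and 172, 810 and 61.8 CPM in untreated KO libraries, and the B, T and NK cell sums were highest in library 1. The part of these cells in the Bcl2 difference was not tested. Without both KO libraries numbered 3, an alternative chosen after seeing the data, Bcl2 was higher in KO by 2.10 log2 (edgeR adjusted p = 0.00963) untreated and 2.03 log2 (edgeR adjusted p = 0.0109) treated. The KO libraries kept in that fit had erythroid sums of 1910 to 2610 CPM, against 31.7 to 38.3 CPM in WT libraries. That fit is therefore no test of the part of these cells.

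**Figure D2:**
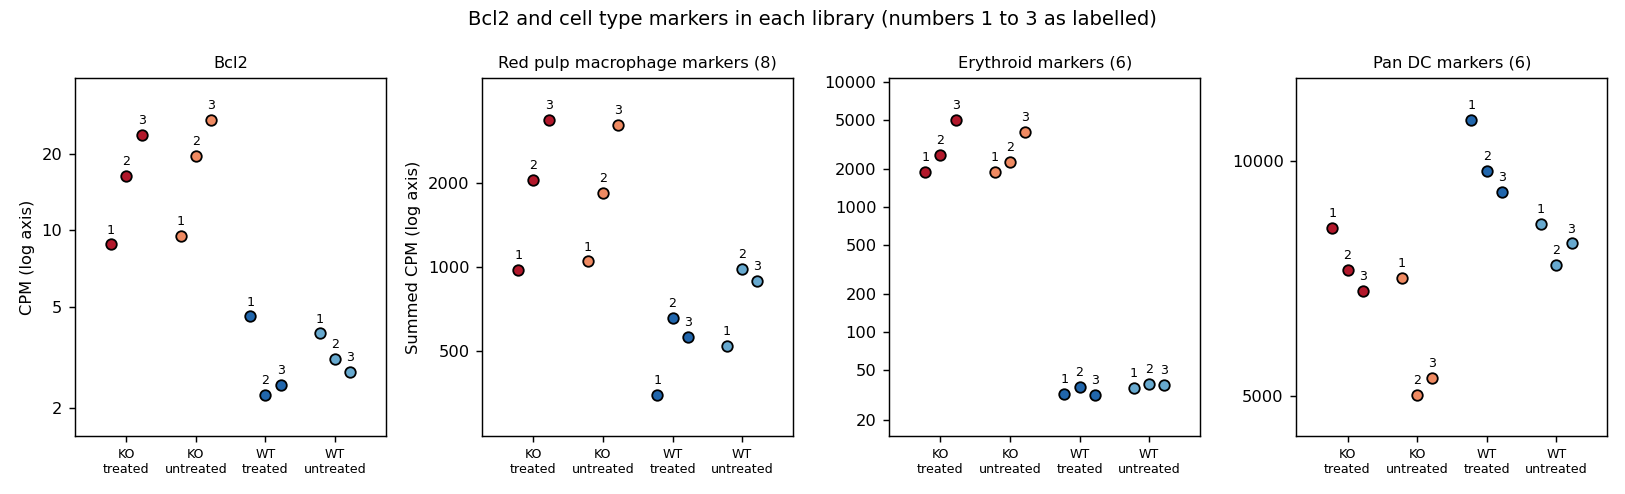
Bcl2 in CPM and the summed CPM of red pulp macrophage, erythroid and general DC markers, per library, on log axes. Points are single libraries with their numbers. Every KO library lies above every WT library for Bcl2 and the erythroid markers, and for both Bcl2 and the macrophage markers the KO libraries numbered 3 are the highest of their group.

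Of the BH3-only genes, Bcl2l11 (BIM) responded most. Its level was 816, 863 and 979.7 CPM in treated KO libraries, against 231, 182 and 211 CPM in untreated KO libraries, a 4.26-fold rise (2.09 log2, SE 0.16, edgeR adjusted p = 2.96e-06). In WT libraries it was 901, 1227 and 1151 CPM treated, against 328, 439 and 405 CPM untreated, a 2.80-fold rise (1.49 log2, SE 0.15, edgeR adjusted p = 4.36e-05). No treated library overlapped an untreated one. Untreated KO cells had 1.88-fold less BIM RNA than untreated WT cells, without overlap (-0.91 log2, SE 0.15, edgeR adjusted p = 0.00247). After bacteria the groups overlapped, and the difference of -0.30 log2 did not pass (SE 0.15, edgeR adjusted p = 0.196).

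Bbc3 (PUMA), best known as a p53 target, rose in KO cells. It had 60.1, 115 and 123 CPM in treated KO libraries, against 40.7, 48.3 and 38.6 CPM in untreated KO libraries, a 2.33-fold rise (1.22 log2, SE 0.26, edgeR adjusted p = 0.00529). Treated WT libraries had 46.0, 43.5 and 55.4 CPM, against 36.0, 60.0 and 60.6 CPM in untreated WT libraries, and these overlapped (-0.11 log2, SE 0.26, edgeR adjusted p = 0.803). In KO cells the treated library 1, at 60.1 CPM, was nearest to the untreated range, and it lay within the range of untreated WT cells. In treated cells KO exceeded WT 2.05-fold (1.04 log2, SE 0.26, edgeR adjusted p = 0.0211), while the untreated groups overlapped (-0.30 log2, SE 0.26, edgeR adjusted p = 0.518). The treated genotype call was lost without treated KO library 2 (0.91 log2 (edgeR adjusted p = 0.0772)) or 3 (0.86 log2 (edgeR adjusted p = 0.0905)). It was also lost without treated WT library 1 (1.00 log2 (edgeR adjusted p = 0.0529)) or 2 (0.97 log2 (edgeR adjusted p = 0.0649)), and with no filter on low counts (1.05 log2 (edgeR adjusted p = 0.063)). The rise in KO cells was not called without both KO libraries numbered 3 (0.99 log2 (edgeR adjusted p = 0.0687)).

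Pmaip1 (NOXA), a BH3-only gene whose protein binds mainly MCL1 and A1, did not pass in either response. Treated KO libraries had 673, 489 and 444 CPM and untreated KO libraries 591, 454 and 434 CPM. In WT libraries the level was 784, 1007 and 952 CPM treated and 725, 929.8 and 955 CPM untreated. Treatments overlapped within each genotype, with changes of 0.12 log2, SE 0.18, edgeR adjusted p = 0.691 in KO and 0.07 log2, SE 0.18, edgeR adjusted p = 0.821 in WT cells. The genotypes did not overlap: KO cells had 1.76-fold less NOXA RNA untreated (-0.82 log2, SE 0.18, edgeR adjusted p = 0.0112) and 1.71-fold less treated (-0.77 log2, SE 0.18, edgeR adjusted p = 0.0153). The untreated call was lost without untreated KO library 2 (-0.80 log2 (edgeR adjusted p = 0.0509)) or 3 (-0.78 log2 (edgeR adjusted p = 0.0527)), or untreated WT library 3 (-0.79 log2 (edgeR adjusted p = 0.0515)). The treated call was lost without treated KO library 2 (-0.72 log2 (edgeR adjusted p = 0.07)) or 3 (-0.65 log2 (edgeR adjusted p = 0.0705)). It was likewise lost without treated WT library 2 (-0.70 log2 (edgeR adjusted p = 0.0516)) or 3 (-0.75 log2 (edgeR adjusted p = 0.053)). The sum of the general DC markers was also lower in KO than in WT within each treatment, although Itgax and Flt3 overlapped, as given above.

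Bax, the pore-forming effector, had the smallest spread over the 12 libraries of the 10 genes, with an SD of 0.241 log2. It had 74.3, 96.5 and 97.1 CPM in treated KO and 84.0, 114 and 92.7 CPM in untreated KO libraries. Treated WT libraries had 75.2, 86.9 and 99.1 CPM and untreated WT libraries 94.0, 124 and 129 CPM. Groups overlapped in all 4 comparisons, and no change passed. The change with bacteria was -0.12 log2, SE 0.16, edgeR adjusted p = 0.664 in KO and -0.41 log2, SE 0.16, edgeR adjusted p = 0.102 in WT cells. With a block for the replicate number within genotype the WT value passed, at -0.40 log2 (edgeR adjusted p = 0.00501). It also passed without untreated WT library 1 (-0.56 log2 (edgeR adjusted p = 0.0396)) and without library 1 of every group (-0.44 log2 (edgeR adjusted p = 0.0485)). Bax was -0.25 log2 untreated and 0.04 log2 treated in KO relative to WT (edgeR adjusted p = 0.361 and 0.912). Bak1, the other effector gene, changed by -0.22 log2 in KO and -0.25 log2 in WT cells (edgeR adjusted p = 0.179 and 0.131).

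**Figure D3:**
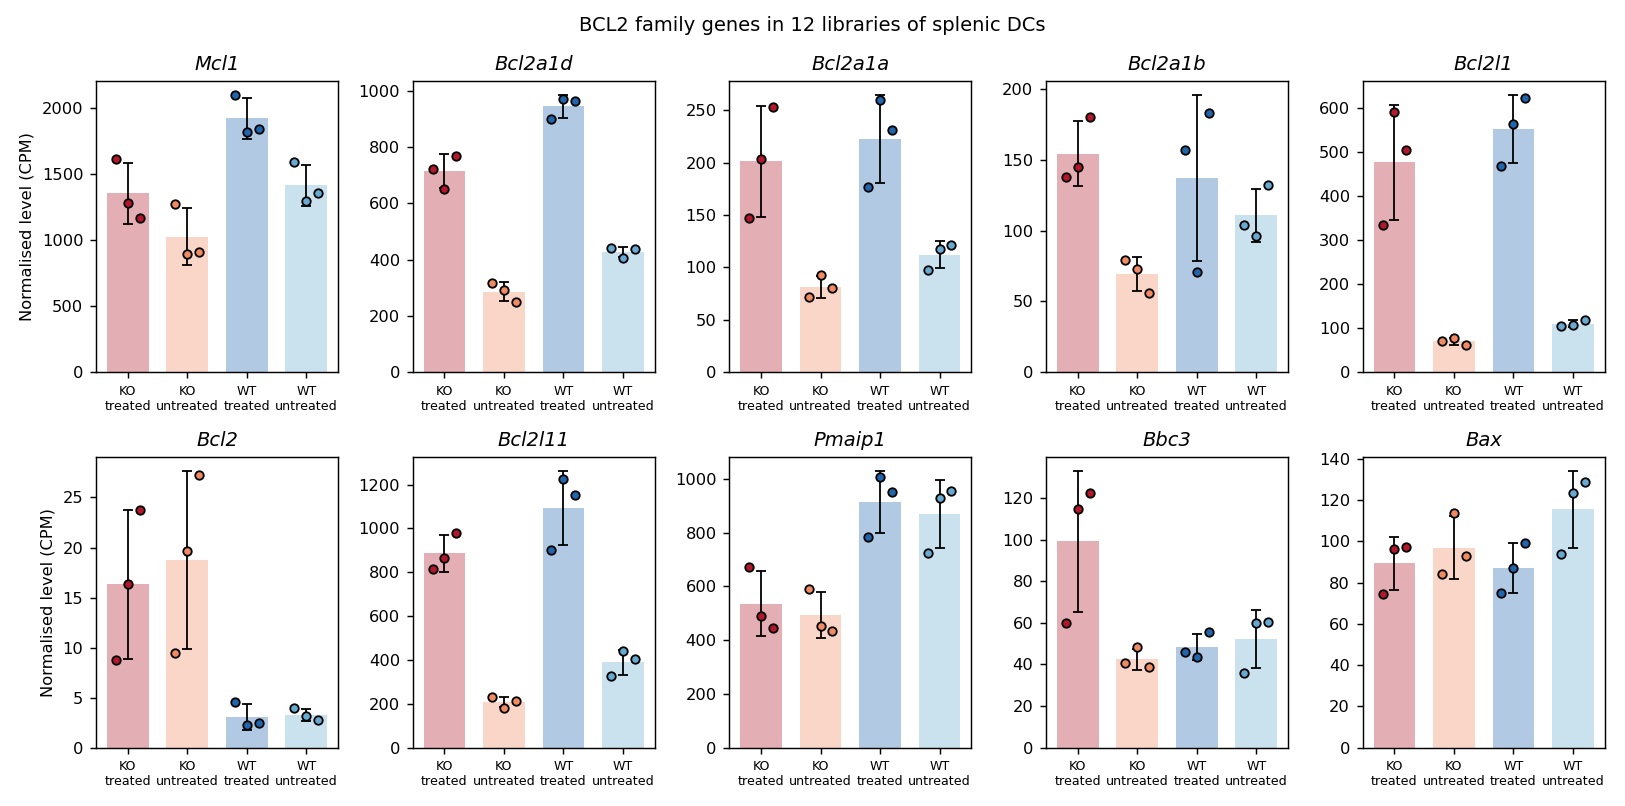
Level of each of the 10 genes in every library, in CPM on linear axes from 0, by group. Points are single libraries, and bars with error bars are means ± SD of 3 libraries. For Bcl2l1 and Bcl2l11 the treated libraries stand above the untreated ones in both genotypes, and for Bcl2 all KO libraries stand above all WT libraries.

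The difference in response between genotypes was tested as KO response minus WT response. None of the 10 genes passed, against a background of 0% of tested genes, so the 6 rises in KO and 4 in WT cells do not show that the responses differ. At an unadjusted p under 0.05, 2 of the 10 and 608 of all 14293 genes passed. These 2 were Bbc3 (1.33 log2, SE 0.36, unadjusted p = 0.0032) and Bcl2l11 (0.61 log2, SE 0.21, unadjusted p = 0.0137), both with an edgeR adjusted p of 1. For Bbc3 the adjusted p was between 0.0918 and 1 under the 22 alternatives. DESeq2 called 7 genes and the block within genotype 41 genes over all tested genes, none of them among the 10.

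Treated and untreated groups did not overlap for 6 of the 10 genes in KO and 5 in WT cells, against 40.3% and 38.9% of all tested genes. KO and WT did not overlap for 8 of the 10 genes untreated and 5 treated, against 37.4% and 28.8%. Scaling by library totals alone moved the median of all genes by -0.38 log2 in the KO response and -0.35 log2 in the WT response. Over all genes 1030 then rose and 4691 fell in KO cells, against 1654 and 1638 with TMM factors, and 799 rose and 4225 fell in WT cells, against 1522 and 1154. In the genotype differences 1669 were then higher and 308 lower in untreated KO cells, against 1358 and 494. In treated cells 1631 were then higher and 312 lower in KO, against 1317 and 699. All 6 rising members in KO and all 4 in WT cells were also called higher with this scaling, and Bax was then called lower in both, at -0.44 log2 (edgeR adjusted p = 0.0408) in KO and -0.72 log2 (edgeR adjusted p = 0.00478) in WT cells. In the genotype differences this scaling changed the call of 1 member, Bcl2a1d in treated cells, which was lost as given above. With the block within genotype, 4986 genes passed in the KO response, against 3292 without it, and 4561 in the WT response, against 2676. Of the 10 genes, 7 and 6 then passed.

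Levels of different genes were compared per length of gene, as FPKM, the CPM divided by the deposited gene length in kilobases. In untreated WT cells Bcl2a1d was the highest at 471 to 509 FPKM, above Mcl1 at 378 to 466 FPKM and Pmaip1 at 274 to 361 FPKM. These 3 ranges did not overlap. Bcl2a1b at 118 to 162 FPKM and Bcl2a1a at 119 to 148 FPKM overlapped each other. Below them came Bax at 59.7 to 81.8 FPKM and Bcl2l11 at 40.8 to 54.7 FPKM. Bbc3 at 17.0 to 28.5 FPKM and Bcl2l1 at 22.6 to 25.9 FPKM overlapped each other, and Bcl2 was the lowest at 0.303 to 0.430 FPKM.

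The makeup of the survival genes moved with bacteria in the same direction in both genotypes. Their summed level was 1766 ± 98.6 FPKM in treated KO and 833 ± 102 FPKM in untreated KO cells (mean ± SD, n = 3 here and below), and 2219 ± 72.0 FPKM in treated WT and 1206 ± 62.1 FPKM in untreated WT cells. The 3 A1 copies held 71.4 ± 3.83% of it in treated KO and 62.0 ± 3.61% in untreated KO cells, and 69.2 ± 2.00% in treated WT and 63.7 ± 2.63% in untreated WT cells. Mcl1 held 22.6 ± 4.51% in treated KO and 35.9 ± 3.88% in untreated KO cells, and 25.4 ± 2.61% in treated WT and 34.3 ± 2.77% in untreated WT cells. Its share was thus smaller in treated than in untreated cells, although its level was not. The share of Bcl2l1 was 5.91 ± 1.71% in treated KO and 1.84 ± 0.204% in untreated KO cells, and 5.42 ± 0.621% in treated WT and 1.99 ± 0.148% in untreated WT cells. Bcl2 held at most 0.258% on average in any group.

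Among the 3 BH3-only genes, Pmaip1 held the largest average share in every group. That share was 55.9 ± 9.23% in treated KO and 80.0 ± 2.01% in untreated KO cells, and 68.5 ± 0.481% in treated WT and 81.8 ± 0.857% in untreated WT cells. Bcl2l11 held 30.9 ± 4.33% in treated KO and 11.2 ± 1.20% in untreated KO cells, and 26.9 ± 0.770% in treated WT and 12.1 ± 0.587% in untreated WT cells. Bbc3 held 13.2 ± 5.07% in treated KO and 8.75 ± 1.70% in untreated KO cells, and 4.55 ± 0.741% in treated WT and 6.04 ± 0.798% in untreated WT cells. The summed level of the 3 genes was 359 ± 21.7 FPKM in treated KO and 232 ± 33.9 FPKM in untreated KO cells, and 504.5 ± 65.4 FPKM in treated WT and 402 ± 61.0 FPKM in untreated WT cells. These shares were not tested.

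**Figure D4:**
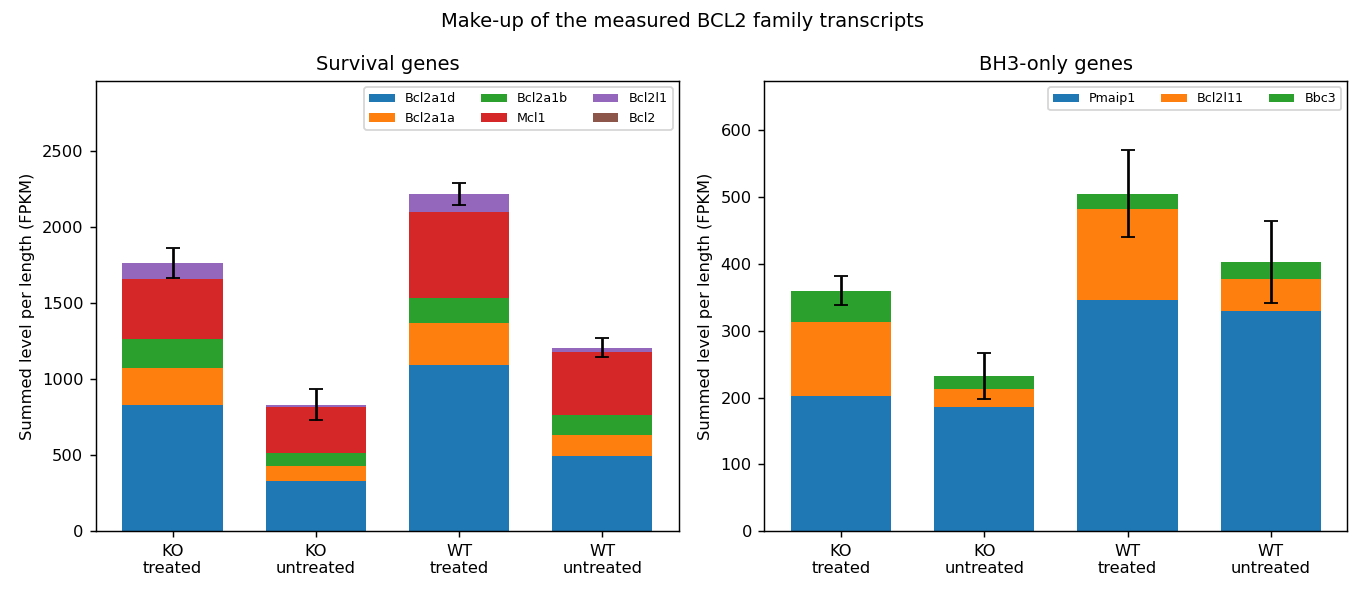
Stacked mean FPKM of the survival genes (left) and the BH3-only genes (right) by group, with error bars of 1 SD of the total over 3 libraries. The Bcl2l1 and Bcl2l11 layers are thicker in treated than in untreated groups of the same genotype, and the Pmaip1 layer is thinner in KO than in WT groups.

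Promoters were read from RefSeq (GRCm38.p6, 250 bases before to 50 after the start), which held 14 windows for 9 of the 10 genes. The A1 promoters are shown because all 3 copies rose in KO cells, while in WT cells Bcl2a1a and Bcl2a1d did and Bcl2a1b was not called. Aligned in pairs, these promoters are 98.0% to 99.2% identical. Capitals mark a loose form of the AP-1 motif, TGANTCA with any letter at N, and the PU.1 motif GAGGAAG, searched on both strands.
Bcl2a1a (chr9:88956770-88956869, plus strand): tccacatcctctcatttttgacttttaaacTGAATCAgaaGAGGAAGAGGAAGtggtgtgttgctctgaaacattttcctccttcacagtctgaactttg
Bcl2a1b (chr9:89199079-89199178, plus strand): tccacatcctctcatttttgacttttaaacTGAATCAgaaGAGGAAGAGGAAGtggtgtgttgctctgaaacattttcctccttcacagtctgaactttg
Bcl2a1d (chr9:88731895-88731994, minus strand): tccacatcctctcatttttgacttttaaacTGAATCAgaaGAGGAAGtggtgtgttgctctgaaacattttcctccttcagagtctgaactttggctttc
All 3 hold 1 match to the loose AP-1 pattern, TGAATCA with A at the open position, which does not make it an AP-1 site. Bcl2a1a and Bcl2a1b hold 2 PU.1 matches side by side and Bcl2a1d holds 1. Of all 32851 RefSeq mouse promoters of this length, 7.81% hold the loose AP-1 pattern and 13.6% the PU.1 motif. Among the other members only Bcl2, which was not called in either response, held a PU.1 match (CTTCCTC, the reverse complement). As near-identical copies, the A1 promoters are not 3 independent cases of a match. AP-1 and PU.1 are transcription factors active in myeloid cells. A match describes letters in the sequence and not binding.

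For the 3 other members that rose, only windows with a match are shown, and each gene had further windows. An NF-kB consensus, in capitals, was found in a single window each of Bcl2l1 and Bbc3. Their other windows and those of the other members, the A1 copies and Bcl2l11 among them, held none. This consensus is present in 8.46% of all promoters, a share per window and not per gene.
Bcl2l1 (chr2:152830908-152830967, minus strand): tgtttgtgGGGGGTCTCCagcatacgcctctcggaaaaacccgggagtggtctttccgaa
Bbc3 (chr7:16309421-16309480, plus strand): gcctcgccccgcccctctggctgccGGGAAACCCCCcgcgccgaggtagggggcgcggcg
For Bbc3 the capitals span 2 overlapping matches. The FOXO motif GTAAACA or its reverse complement was found in a single window of Bcl2l11 and in another window of Bbc3, and in 3.65% of all promoters. The remaining windows of both genes held none, and neither did those of the other members, the A1 copies and Bcl2l1 among them.
Bcl2l11 (chr2:128125788-128125847, plus strand): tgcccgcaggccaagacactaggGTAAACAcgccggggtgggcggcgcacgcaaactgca
Bbc3 (chr7:16310069-16310128, plus strand): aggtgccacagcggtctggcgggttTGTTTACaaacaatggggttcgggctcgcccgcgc
Further motifs searched were the interferon response element GAAA, any 2 letters, GAAA (3.44% of all promoters), the CRE TGACGTCA (1.79%), TATAAA (13.6%) and a p53 consensus of 10 letters (8.36%). Of these, the members held only the p53 consensus, in a promoter of Bax.

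Of all tested genes 11.6% rose in KO and 10.6% in WT cells, and no other BCL2 family gene of the list was called higher with bacteria. Of 16 such genes 11 were tested, and 3 fell in KO and 2 in WT cells, where 11.5% and 8.07% of all tested genes fell. The BH3-only gene Bmf fell by 2.52 log2 in KO (SE 0.25, edgeR adjusted p = 2.85e-05) and by 1.88 log2 in WT cells (SE 0.24, edgeR adjusted p = 0.000261). In KO cells the BH3-only gene Bad (-0.93 log2) and the mitophagy receptor gene Bnip3l (-0.54 log2) also fell, and in WT cells Bcl2l12 (-1.10 log2). The list's median was -0.26 log2 in KO and -0.34 log2 in WT cells. Bmf was lower in KO than in WT cells, by -0.92 log2 untreated and -1.57 log2 treated (edgeR adjusted p = 0.0222 and 0.00227). Bcl2l15 was higher in KO by 3.52 and 3.45 log2 (edgeR adjusted p = 0.005 and 0.00474). Bnip3l was higher in untreated (0.58 log2) and Bcl2l14 in treated KO cells (0.53 log2).

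Of 17 genes of the apoptosome, caspases and their inhibitors, 5 rose and 2 fell in KO cells, and 5 rose and 2 fell in WT cells. Of all tested genes, 11.6% rose and 11.5% fell in KO cells, and 10.6% rose and 8.07% fell in WT cells, so the 2 that fell are near that background. The list's median was 0.11 log2 in KO and 0.15 log2 in WT cells, against -0.07 and -0.04 log2 for all genes. Cflar, which encodes the caspase-8 inhibitor c-FLIP, rose by 1.73 log2 in KO and 1.58 log2 in WT cells (edgeR adjusted p = 6.05e-07 and 1.93e-06). Apaf1, the scaffold of the apoptosome, rose by 1.33 and 1.07 log2 in KO and WT cells. Birc3, which encodes the ubiquitin ligase cIAP2, rose by 1.09 log2 in KO and 0.86 log2 in WT cells, and its relative Birc2 rose by 1.00 and 0.88 log2. Xiap, which encodes a direct caspase inhibitor, was the fifth that rose, by 0.47 log2 in KO and 0.56 log2 in WT cells. The caspase genes Casp9 (-1.11 log2 in KO, -0.49 log2 in WT) and Casp2 (-0.63 and -0.61 log2) fell in both genotypes. Between genotypes, 2 genes were higher and 3 lower in untreated KO cells, against 9.50% and 3.46% of all tested genes. In treated KO cells 1 was higher and 0 were lower, against 9.21% and 4.89%. The 2 higher untreated and both treated counts are near that background. Casp9 (0.99 log2) and Casp2 (0.53 log2) were higher in untreated KO cells, and Htra2 (-0.56 log2), Cflar (-0.41 log2) and Birc3 (-0.40 log2) were lower. After bacteria Casp2 (0.51 log2) was higher in KO.

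Of 14 genes for death receptors and necroptosis, 6 rose in KO and 5 in WT cells, against the 11.6% and 10.6% of all tested genes that rose. None fell, where 11.5% of all tested genes fell in KO and 8.07% in WT cells, so in a list this small the lack of falls says little. The list's median was 0.31 log2 in KO and 0.25 log2 in WT cells. Zbp1, a sensor that can start necroptosis, rose by 4.10 log2 in KO and 3.48 log2 in WT cells. The death ligand gene Tnfsf10 (TRAIL) rose by 2.52 log2 in KO and 4.52 log2 in WT cells. Fas rose by 1.38 log2 in KO and 0.72 log2 in WT cells, where the groups overlapped. Mlkl, the effector of necroptosis, rose in KO cells (2.88 log2). Mlkl (2.20 log2) and Tnfsf10 (2.98 log2) were higher in untreated KO than WT cells, and Mlkl (3.15 log2) and Zbp1 (1.34 log2) in treated KO cells. In both genotypes the list also held the receptor gene Tnfrsf1a, which rose by 1.05 log2 in KO and 1.10 log2 in WT cells.

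Of 14 tested genes for p53 and its targets, 3 rose and 2 fell in KO cells, and 2 rose and 2 fell in WT cells. The background was 11.6% higher and 11.5% lower in KO cells and 10.6% higher and 8.07% lower in WT cells, so these counts lie near it. The list's median was 0.19 log2 in KO and 0.08 log2 in WT cells. Cdkn1a, the gene of the cell cycle inhibitor p21, rose by 1.95 log2 in KO and 1.54 log2 in WT cells, and the kinase gene Plk2 by 2.29 and 1.59 log2. Trp53inp1 fell by 1.26 log2 in KO and 1.34 log2 in WT cells, and Zmat3 was also lower (-0.96 and -0.68 log2). Trp53 itself changed by 0.38 log2, SE 0.11, edgeR adjusted p = 0.0296 in KO and by -0.01 log2, SE 0.11, edgeR adjusted p = 0.959 in WT cells. In untreated KO cells Cdkn1a (-0.91 log2), Plk2 (-0.78 log2) and Sesn2 (-0.56 log2) were lower than in WT cells, and Sesn2 (-0.70 log2) also in treated cells.

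Of 10 FOXO and stress regulators, 2 rose and 3 fell in KO cells, and 1 rose and 1 fell in WT cells. With 18.7% of all tested genes called in WT cells, the WT count is near the background, and in KO cells 23.0% of all tested genes were called. The list's median was -0.37 log2 in KO and -0.23 log2 in WT cells. Atf3, a stress transcription factor, rose by 2.08 log2 in KO and 1.20 log2 in WT cells, and Egr1 rose in KO (2.04 log2). Tsc22d3, a glucocorticoid target, fell in both genotypes (-0.85 log2 in KO, -0.57 log2 in WT), and Foxo3 (-0.68 log2) and Foxo4 (-0.65 log2) fell in KO cells. E2f1 was higher in KO than in WT cells, by 1.71 log2 untreated and 1.87 log2 treated. In treated KO cells Egr1 (1.50 log2) was also higher, and Ddit3 (-0.57 log2) and Tsc22d3 (-0.72 log2) were lower. Of 7 genes that govern MCL1 stability, 1 rose in KO cells and 2 rose in WT cells, against 11.6% and 10.6% of all tested genes, so a count this small says nothing particular of the list. The list's median was 0.11 log2 in KO and 0.18 log2 in WT cells. Huwe1, an MCL1 ubiquitin ligase, rose by 0.40 log2 in KO and 0.54 log2 in WT cells, and the deubiquitinase gene Usp9x by 0.47 log2 in WT cells. Dusp6 was higher in untreated (2.38 log2) and Ube2c in treated KO cells (1.46 log2).

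For each of the 10 genes, the 2 genes with the most similar pattern over the 12 libraries were sought among 7947 genes with a mean of at least 10 CPM. Likeness was the root mean square difference of centred log2 CPM, so that a smaller value is closer. The closest to Mcl1 were the MHC class II genes H2-Ab1 (0.0773) and H2-Aa (0.0924), of which H2-Ab1 is also one of the general DC markers. Closest to Bcl2l1 were Marcksl1 (0.196) and the costimulatory receptor gene Cd40 (0.205), and closest to Bcl2l11 were Cdkn1a (0.175) and Clic4 (0.193). Bcl2a1d was nearest to Tmem243 (0.104) and Sbds (0.122), Bcl2a1a to Rassf4 (0.154) and Rnf19b (0.171), and Bcl2a1b to Junb (0.259) and Mrgbp (0.281). Pmaip1 was nearest to Emp3 (0.0919) and Clasp1 (0.127), and Bax to Mrpl11 (0.0561) and Ccdc88b (0.101). The nearest to Bcl2 were Pitpnc1 (0.195) and Mgat5 (0.226), and to Bbc3 Kremen1 (0.244) and Yju2 (0.264). The median over all candidates was between 0.356 for Bax and 1.33 for Bcl2l1.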

How the data were processed

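Raw counts per gene were deposited by the authors for the 12 libraries, which are the 12 count columns used here. Per the submitters' processing notes, bases were called with CASAVA 1.8 and reads aligned with HISAT2 (version not given) to mm10. Random hexamers primed the libraries, and both ends of each fragment were read for 150 bases, per the labels' protocols. How reads were counted, with which strand setting and annotation release, and how reads with several matches were treated is not given in the sources used here. Of the 54532 genes, 203 shared a symbol with another gene; none of the 10 did. The members and lists were chosen with earlier results of these data known.

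The main test was that of edgeR 4.0.16 (R 4.3.3). filterByExpr with the 4 groups kept 14293 genes, TMM factors set the library sizes, and a robust quasi-likelihood model with a term per group was fitted to all 12 libraries. The 5 contrasts were the response in KO and in WT, the genotype difference in untreated and in treated cells, and the interaction. Adjustment was by Benjamini-Hochberg over all tested genes, with a threshold of 0.05. Each standard error (SE) was derived as the size of the log2 fold change divided by the root of F. The fit was tested on simulated data. FPKM used the gene lengths deposited by the authors. Named genes were the members, up to 4 called genes per list and contrast by size of change, and Trp53, Birc3, Cflar and Bak1 throughout. Outside this rule Casp2, Casp9 and Xiap in the responses, and Birc2, Tnfrsf1a and Foxo4 in KO cells, were named after their values were seen. A listed gene is not reported here and was left out of its list's counts. Likeness was computed from log2 CPM with a prior count of 2.

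Libraries of the same genotype and number deviated together across treatments (r from 0.226 to 0.53 in 6 pairs). Numbers were therefore taken to pair them in the alternative with a block within genotype. This pairing comes from the data, as no label says what the numbers mark. The fit reported has no term for the number, so its p-values for the responses ignore the pairing. Replicates differed by more than sampling noise. Alternatives were DESeq2 size factors, library totals, the DESeq2 1.42.0 Wald test, no filter, only the groups compared, blocks on the number, the A1 copies summed and libraries left out. Table coordinates matched GENCODE M21 for 9 of the 10 genes. Sequences were handled with Biopython 1.88 and pandas 2.3.3 and figures drawn with matplotlib 3.10.9 in Python 3.11.15. Pmaip1's promoter was not used here.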

Additional observations from a re-analysis of the deposited data

How the results depend on the processing

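In every alternative run, Bcl2a1a, Bcl2a1d, Bcl2l1 and Bcl2l11 were called higher in both responses, Bcl2a1d and Bcl2l11 lower and Bcl2 higher in untreated KO cells, and Bcl2 higher in treated KO cells. Counting each member once in every comparison and alternative, 1049 values kept their side of the threshold, 36 lost a call and 35 gained one. No called value changed sign, but some values that were not called did. Pmaip1, for example, changed by 0.07 log2 in the WT response and by -0.25 log2 with library totals alone. The number of the 10 genes called was 4 to 7 in the KO response (6 in the fit reported) and 4 to 6 in the WT response (4). Leaving out 1 library at a time gave 3 to 6 called in the untreated genotype difference (5 with all libraries) and 1 to 5 in the treated one (4). The lowest counts were 3, without untreated KO library 3 or untreated WT library 3, and 1, without treated KO library 2 or treated WT library 2. With both KO libraries numbered 2 left out, which have the highest neutrophil markers, 1 gene (Bcl2) was called in the treated genotype difference, and with both numbered 3 left out 2 were. These 2 alternatives were chosen after seeing the data. In the KO response they left 5 and 4 genes called, Bcl2a1b being lost in both (1.25 log2 (edgeR adjusted p = 0.0655) and 0.91 log2 (edgeR adjusted p = 0.132)). No gene of the 10 was called in the interaction under any alternative. Fits that leave out libraries have fewer samples by construction, and the cause of the other changes was not tested.

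With a replicate block within genotype, 7 of the 10 genes were called in the KO and 6 in the WT response, through Mcl1 in both and Bax in WT cells, and the block changed no other call of a member there. Across genotypes the numbers do not pair the libraries by the rule used (r from 0.0787 to 0.323 between KO and WT libraries of the same number and treatment, and not every library correlated best with its own number). With the replicate number as a block over all groups, 7, 6, 7 and 5 of the 10 genes were called in the KO response, the WT response and the untreated and treated genotype differences. Mcl1 was then called in all 4 comparisons and Bcl2a1a in the untreated genotype difference (-0.46 log2 (edgeR adjusted p = 0.0205)).

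Counts over all tested genes moved more. Leaving out 1 library at a time gave as few as 2132 genes in the KO response (3292), 1509 in the WT response (2676), 863 in the untreated (1852) and 1028 in the treated genotype difference (2016). With only the groups compared in the fit the treated genotype difference had 1074. Without both KO libraries numbered 2 the KO response, untreated and treated differences had 1293, 886 and 738 genes, and without those numbered 3 they had 1556, 1012 and 1019. The interaction had 0 genes in the fit reported, 41 with the block within genotype, 8 without treated KO library 1, 7 with DESeq2, and 2 with no filter or without untreated KO library 1. Depth limits Bcl2 most, with 39 to 74 counts per WT library.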
